A study of Homo sapiens with 24 samples.

Results

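The genes described here are 43 transcripts that cells switch on within minutes to hours of a growth signal or a mechanical change, named from textbook knowledge as immediate-early genes and as targets of the transcription factor SRF or of the coactivator YAP. They were picked by symbol from the probe annotation of the array, and a gene with several probe sets is represented by the brightest one on average. Of the 43 genes, 42 were measured, through 44 probe sets, out of 18417 genes on the array; IER3 has 3 probe sets and every other gene has 1. EGR2 has no probe set with a single symbol and is not analysed here. FMR4 is a long non-coding RNA made antisense to FMR1. HEK293T cells, a transformed line from human embryonic kidney, received FMR4 siRNA or CTRL siRNA (40 nM, with Lipofectamine RNAiMAX) to test its knockdown, and FMR4 pcDNA3.1 or CTRL pcDNA3.1, the empty vector (0.5 µg, with Lipofectamine 2000CD), to test its overexpression. RNA was taken 6 h or 24 h later, with 3 arrays in each of the 8 conditions and 24 in all, and each array carries a biological replicate that pools 3 technical ones. All conditions used a single cell line, and cells were transfected on the day they were plated. With RNA taken at 6 h or 24 h, every array lies within a day of transfection. Whether all conditions and replicates were handled on the same day is not stated. The siRNA and plasmid cells differ in both the nucleic acid and the transfection reagent, which cannot be told apart. Between FMR4 pcDNA3.1 and FMR4 siRNA, overexpression against knockdown is a further difference that cannot be separated from these.

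Immediate-early genes need no new protein for their induction. Growth factors act through the kinase ERK and the SRF partners of the ELK family to start FOS and EGR1, whose protein products then switch on later genes. ERK output is damped by genes of the same wave: DUSP phosphatases remove phosphate from MAP kinases, and Sprouty proteins act upstream of them. Actin assembly works through other SRF partners, the MRTF proteins, and spread or tense cells keep YAP in the nucleus, where it joins TEAD factors on genes such as CCN2, CCN1 and ANKRD1. ID genes answer to BMP signals and encode helix-loop-helix proteins that bind partner factors but not DNA.

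All 42 genes had a mean level over the 24 arrays above 6.00 on the log2 scale, which is the upper quartile of 429 olfactory receptor and keratin-associated protein genes and serves as a background mark. The means ran between 6.24 for DUSP6 and 11.74 for ID2, with a median of 8.46 against 8.15 over all genes. SPRY4 at 6.27 and THBS1 at 6.30 were the next lowest. All 8 markers set for HEK293T cells lay above the mark, with a median of 10.24. Of 15 markers of other cell types, 10 also lay above it, with KRT14 the brightest at 8.27, so a level just above the mark does not show that a gene is on, and PTPRC, ALB, DCN, PECAM1 and MYH2 lay below it. No probe set could be assigned to FMR4, so the extent of its knockdown or overexpression was not read from these arrays. Over all genes, the 3 FMR4 siRNA arrays of 6 h lay farther from their condition's mean than any other array, with a root mean square deviation of 0.144, 0.111 and 0.183 for replicates 1, 2 and 3, against 0.070 to 0.106 on the other 21. Results that rest on these arrays are given with and without single arrays.

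SRF and YAP, which joins TEAD factors, name part of the set, so promoter sequence was searched for SRF and TEAD sites. RefSeq windows on GRCh38.p14, reaching from 250 bases before a start site to 50 after it, were at hand for 33 of the 43 genes, and a gene with several start sites was scored on all of its windows. Stretches are shown for EGR1 and SRF, the measured genes with a CArG box inside such a window, and for the 4 YAP and TEAD targets that had a window. They are written in the direction of the gene, with the matched motif in capitals.
EGR1, CArG box, chr5:138465359-138465420, plus strand: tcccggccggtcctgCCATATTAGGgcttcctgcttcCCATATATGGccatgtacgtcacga
SRF, CArG box, chr6:43171224-43171268, plus strand: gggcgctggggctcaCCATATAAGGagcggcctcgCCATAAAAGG
CCN2, GGAATG, chr6:131951447-131951556, minus strand: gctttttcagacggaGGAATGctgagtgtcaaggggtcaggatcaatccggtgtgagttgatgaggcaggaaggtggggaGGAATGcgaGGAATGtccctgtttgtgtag
ANKRD1, GGAATG, chr10:90921195-90921322, minus strand: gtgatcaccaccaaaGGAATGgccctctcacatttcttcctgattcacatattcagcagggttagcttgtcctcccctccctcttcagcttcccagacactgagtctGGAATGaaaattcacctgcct
THBS1, GGAATG, chr15:39581018-39581053, plus strand: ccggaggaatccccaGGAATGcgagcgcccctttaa
AMOTL2, GGAATG on the opposite strand, read here as CATTCC, chr3:134374496-134374531, minus strand: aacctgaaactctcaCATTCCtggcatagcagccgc

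The CArG box is the sequence that SRF binds. It occurred in the windows of 3 of the 33 genes, EGR1, SRF and EGR2, and in 1.6% of 27305 genes. EGR1 and SRF have 2 matches each, and those of SRF, which encodes the protein that reads the motif, lie within the last 45 bases before its start site. GGAATG is the core of the site read by TEAD factors, searched on both strands, and it occurred for 9 of the 33 genes and in 16.7% of all genes. The 9 are CCN2, with 3 matches, ANKRD1 and EGR2, with 2 each, and THBS1, AMOTL2, SPRY4, NR4A3, ID1 and ID4, with 1 each. TGACGTCA, the cyclic AMP response element, was found for JUND and DUSP1 (2.25% of all genes), and the AP-1 site TGACTCA for FOSL2 (6.05%). Such matches describe the letters of these windows and do not show binding.

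At 6 h the matricellular genes set the arrays apart most. THBS1 encodes thrombospondin-1, a secreted adhesion protein, and had log2 levels of 6.09, 5.72 and 5.89 with FMR4 pcDNA3.1, 5.95, 6.03 and 6.09 with CTRL pcDNA3.1, 5.99, 7.13 and 8.45 with FMR4 siRNA, and 7.75, 7.58 and 8.09 with CTRL siRNA. The plasmid cells thus lay at the background mark, the CTRL siRNA cells well above it, and the 3 FMR4 siRNA arrays spread over the whole distance between them. CCN2, which encodes connective tissue growth factor, had 8.77, 8.59 and 8.62 with FMR4 pcDNA3.1, 8.77, 8.70 and 8.52 with CTRL pcDNA3.1, 8.92, 9.33 and 11.03 with FMR4 siRNA, and 10.07, 10.17 and 10.61 with CTRL siRNA. CCN1, its close relative of the same secreted family, had 8.48, 8.31 and 8.46 with FMR4 pcDNA3.1, 8.35, 8.38 and 8.34 with CTRL pcDNA3.1, 8.35, 8.95 and 10.13 with FMR4 siRNA, and 9.36, 9.42 and 9.79 with CTRL siRNA. In both genes FMR4 siRNA replicate 1 sat nearest to the plasmid arrays and replicate 3 above every other array of 6 h. ANKRD1, a nuclear ankyrin-repeat protein best known from heart muscle, had 6.72, 6.85 and 7.0 with FMR4 pcDNA3.1, 7.21, 7.35 and 6.53 with CTRL pcDNA3.1, 6.93, 7.49 and 8.78 with FMR4 siRNA, and 7.63, 7.90 and 8.23 with CTRL siRNA. Its control replicates also lay farther apart than those of CCN2 and CCN1. AMOTL2, a junction protein that binds YAP, showed a smaller step, with 7.54, 7.52 and 7.43 with FMR4 pcDNA3.1, 7.44, 7.34 and 7.56 with CTRL pcDNA3.1, 7.5, 7.48 and 7.96 with FMR4 siRNA, and 7.78, 7.78 and 7.82 with CTRL siRNA.

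**Figure D1:**
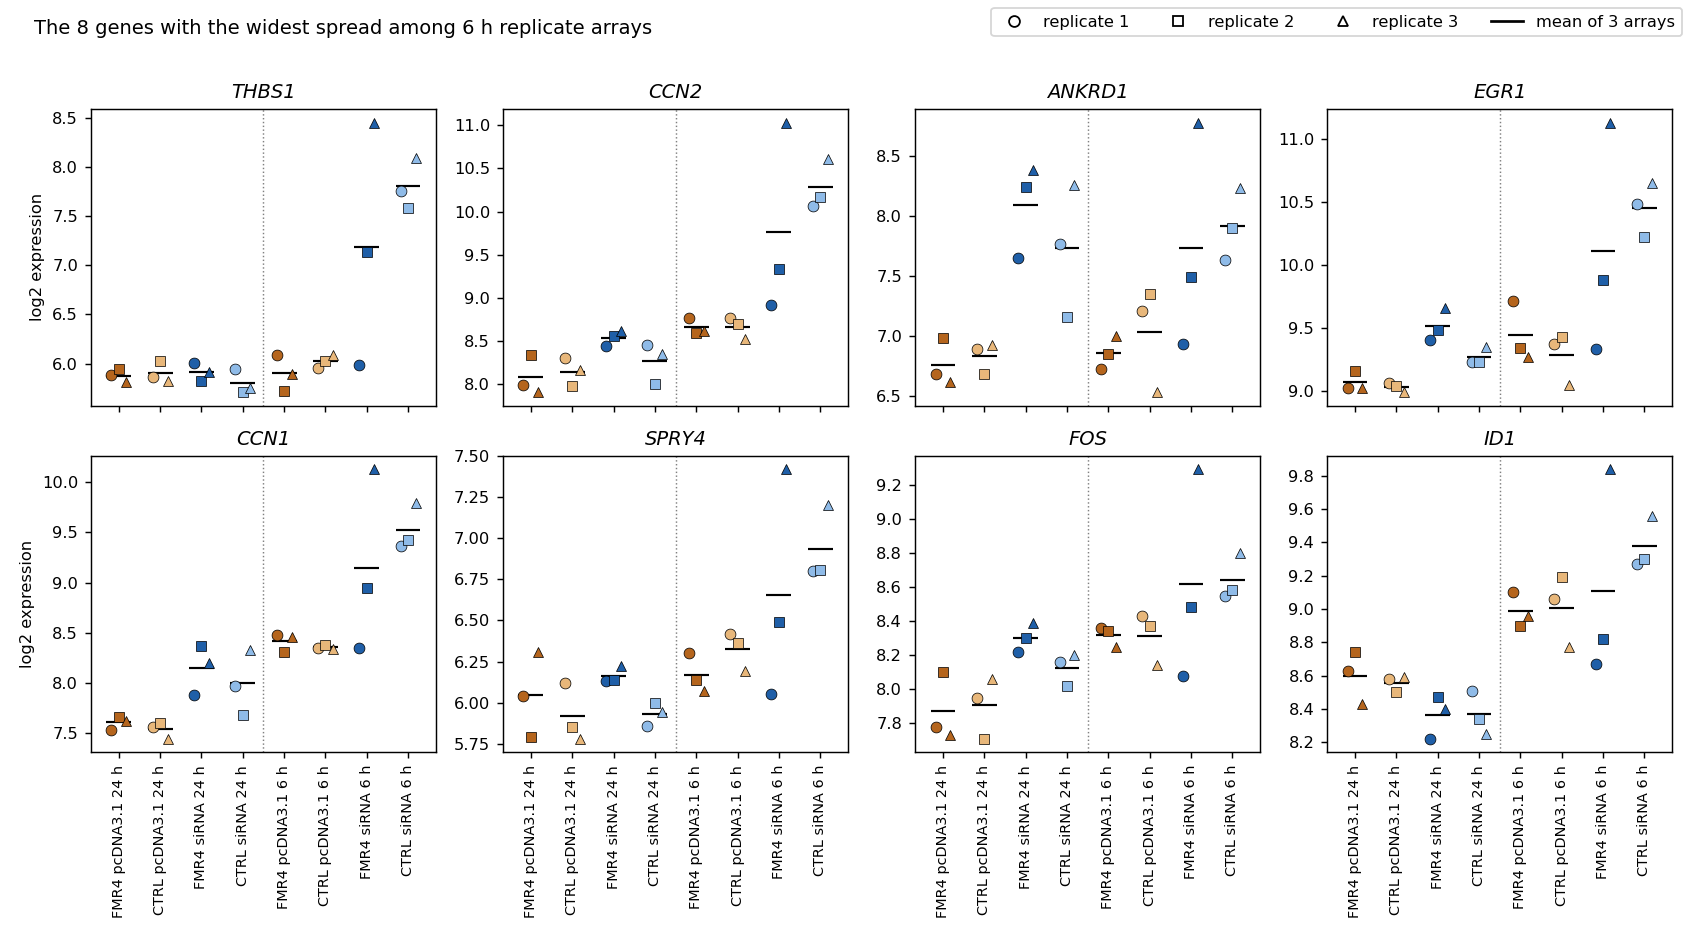
log2 expression (vertical axes, each on its own scale) on every array for the 8 genes whose replicates at 6 h lay farthest apart, by condition, with a symbol for each replicate and a bar at the mean of 3 arrays. FMR4 siRNA at 6 h spans 2.45 for THBS1 and 1.80 for EGR1, with replicate 1 lowest and replicate 3 highest in each of the 8 genes.

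The same order of FMR4 siRNA arrays, replicate 1 lowest and replicate 3 highest, held for 28 of the 42 genes, against 16.1% of all genes, and 10 others had replicate 2 lowest. It held for EGR1, FOS, SPRY4 and ID1, which complete the 8 genes of widest range. EGR1, a zinc-finger factor, had 9.71, 9.34 and 9.27 with FMR4 pcDNA3.1, 9.37, 9.43 and 9.05 with CTRL pcDNA3.1, 9.33, 9.88 and 11.13 with FMR4 siRNA, and 10.48, 10.22 and 10.65 with CTRL siRNA at 6 h. FOS, a subunit of the dimeric factor AP-1, had 8.36, 8.34 and 8.25 with FMR4 pcDNA3.1, 8.43, 8.37 and 8.14 with CTRL pcDNA3.1, 8.08, 8.48 and 9.29 with FMR4 siRNA, and 8.55, 8.58 and 8.80 with CTRL siRNA. FMR4 siRNA replicate 1 was below all 11 other arrays of that time for FOS, and replicate 3 above them. SPRY4, a Sprouty inhibitor of receptor signalling, had 6.30, 6.14 and 6.07 with FMR4 pcDNA3.1, 6.42, 6.36 and 6.19 with CTRL pcDNA3.1, 6.05, 6.49 and 7.42 with FMR4 siRNA, and 6.80, 6.81 and 7.2 with CTRL siRNA. ID1 had 9.10, 8.90 and 8.96 with FMR4 pcDNA3.1, 9.06, 9.19 and 8.77 with CTRL pcDNA3.1, 8.67, 8.82 and 9.84 with FMR4 siRNA, and 9.27, 9.30 and 9.56 with CTRL siRNA. The range among replicates was widest in FMR4 siRNA at 6 h for each of these 8 genes and reached 2.45 for THBS1, 2.11 for CCN2, 1.85 for ANKRD1, 1.80 for EGR1, 1.78 for CCN1, 1.37 for SPRY4, 1.21 for FOS and 1.17 for ID1. Across the set, FMR4 siRNA replicate 3 was the highest of the 12 arrays of 6 h for 29 of 42 genes. The share over all genes was not counted for this, and that array also deviated most over all genes. Replicate 3 was the highest of the 3 FMR4 siRNA arrays for 38 of 42 genes, against 38.4% of all genes. Replicate 1 lay below all 3 CTRL siRNA arrays for 36 genes (29.5% of all genes), replicate 2 did so for 34 (41.8%), and replicate 3 lay above all 3 for 30 (29.1%). The median deviation from the mean of the 12 arrays of 6 h was -0.14, -0.06 and 0.39 over the 42 genes on FMR4 siRNA replicates 1, 2 and 3, while it was 0.01, -0.04 and 0.00 over all genes. A list of heat-shock and stress genes, read as a sign of stressed cells, had -0.03, 0.01 and 0.10 on the same arrays. Lists of related genes outside the set moved more on replicate 3, with a median of 0.28 for SRF cofactors and cytoskeletal targets, 0.26 for further immediate-early genes, 0.24 for ERK feedback and output and 0.15 for further YAP targets, against 0.11 for the Hippo list and 0.07 for BMP and TGF-beta targets. The part of any of these in the spread was not tested.

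**Figure D2:**
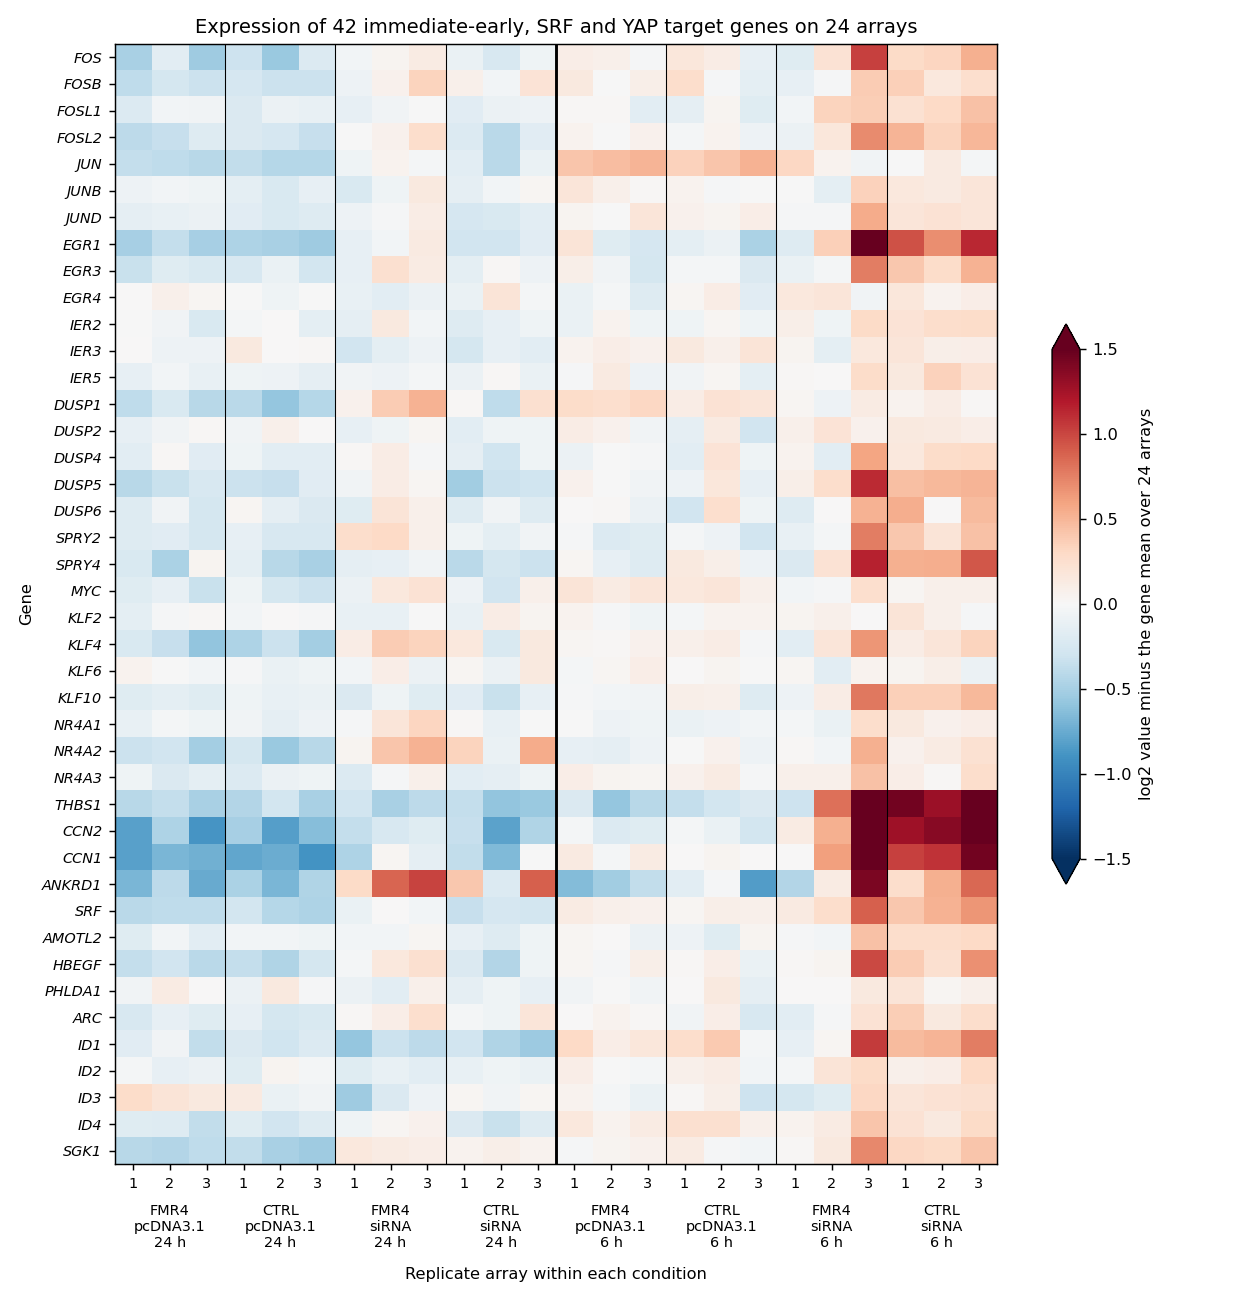
Each row is a gene and each column an array, coloured by the log2 value minus the gene's mean over the 24 arrays, from blue (1.5 lower) to red (1.5 higher); columns are grouped by condition and numbered by replicate. The reddest columns are FMR4 siRNA replicate 3 and the 3 CTRL siRNA arrays at 6 h, while JUN is highest in the 6 plasmid arrays of 6 h.

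The knockdown at 6 h was compared through FMR4 siRNA minus CTRL siRNA. None of the 42 genes passed the threshold (limma, Benjamini-Hochberg adjusted p under 0.05), beside 0.0597% of the 18417 genes; at an unadjusted p under 0.05 there was 1, ARC, beside 3.9% of all genes. The median difference was -0.09 over the set and -0.02 over all genes, and 5 of the 42 were above 0. THBS1 differed by -0.62 on the log2 scale (SE 0.32, 95% interval -1.28 to 0.04), CCN2 by -0.52 (SE 0.30, -1.16 to 0.11) and EGR1 by -0.34 (SE 0.25), all with an adjusted p of 1. The outcome turned on replicate 3. Without it, 17 of the 42 genes were lower in FMR4 siRNA cells and none higher, against 3.95% of all genes that were lower. They were THBS1 at -1.25, CCN2 at -1.16, CCN1 at -0.87, EGR1 at -0.85, SPRY4 at -0.66, ID1 at -0.64, EGR3 at -0.47 and ID3 at -0.44, followed by FOSL2, SPRY2, HBEGF, KLF10, ARC, SRF, DUSP5, AMOTL2 and SGK1. Without replicate 1 in its place, none passed, the median over the set was -0.01, and 16 genes turned positive. They include FOS (0.24), ANKRD1 (0.21), SGK1 (0.09), HBEGF (0.08), EGR1 (0.06), SRF (0.05), KLF10 (0.05), SPRY2 (0.03), CCN1 (0.02) and SPRY4 (0.02), and 8 of them are among the 17 called lower without replicate 3. For those 16 genes the sign thus depended on which single array was left out. THBS1 and CCN2, the largest differences, did not turn positive without any 1 of the FMR4 siRNA arrays. Without replicate 1, however, both differences nearly vanished, so their size also depended on a single array.

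**Figure D3:**
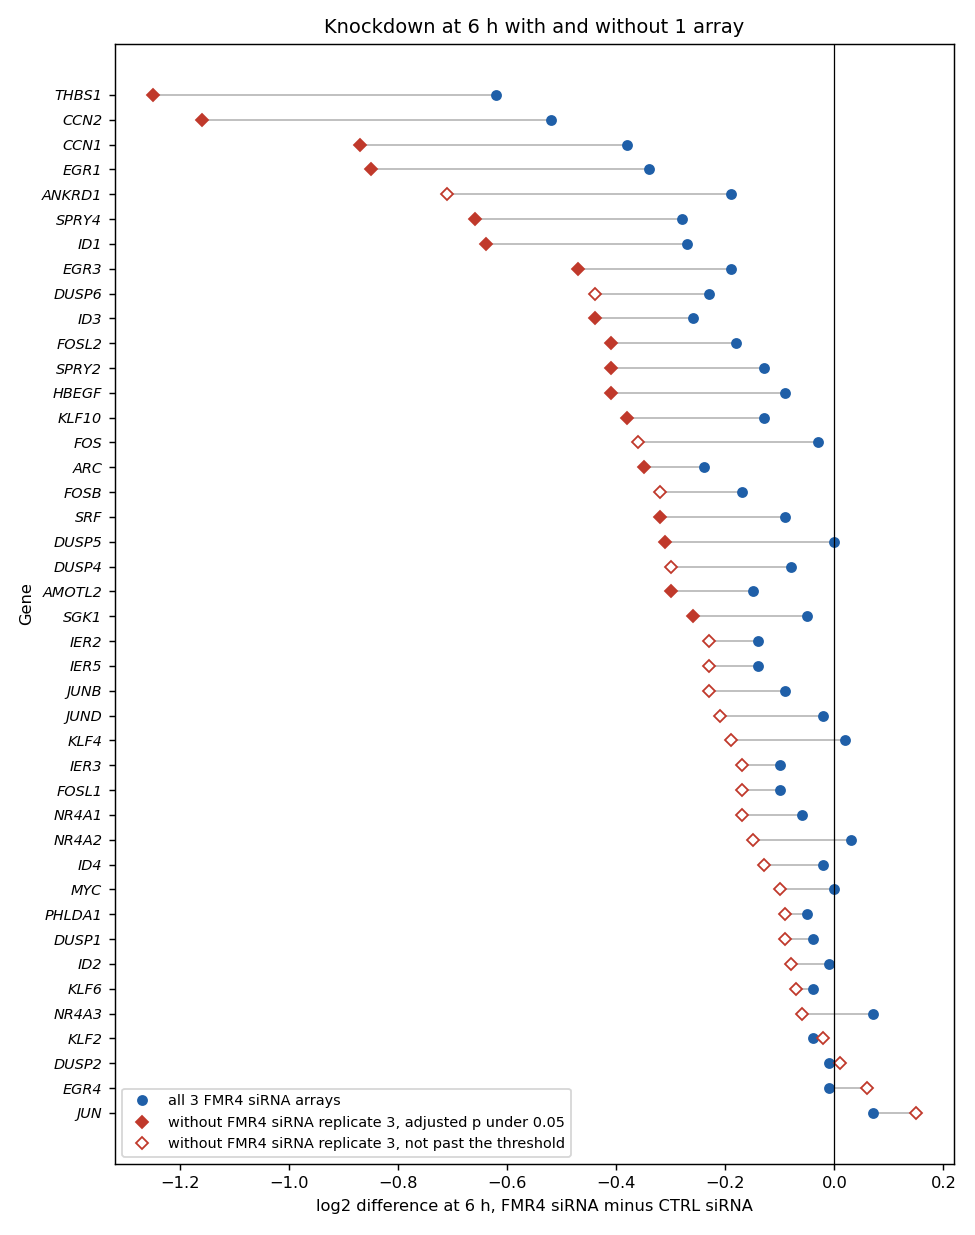
log2 difference of FMR4 siRNA minus CTRL siRNA at 6 h (horizontal axis) for each gene with all 3 FMR4 siRNA arrays (blue circles) and without replicate 3 (red diamonds, filled where the adjusted p is under 0.05). Without that array THBS1 stands at -1.25, against -0.62 with it, and 17 genes pass the threshold, all of them lower.

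The knockdown at 24 h showed small differences, mostly upward, none of which passed the threshold in the fit over all 24 arrays. Over all genes 5.88% passed in either direction. At an unadjusted p under 0.05 there were 11 of 42, against 16.4% of all genes. Of the 42 differences 37 were above 0, with a median of 0.135 over the set and 0.00 over all genes. All 3 FMR4 siRNA arrays lay above all 3 CTRL siRNA arrays for 14 of the 42 genes, against 12.6% of all genes, and below them for 1, ID3, against 9.55%. ID4 had 9.60, 9.70 and 9.73 with FMR4 siRNA and 9.45, 9.34 and 9.47 with CTRL siRNA, a difference of 0.26 (SE 0.08, limma adjusted p = 0.0597). DUSP1, a nuclear phosphatase of MAP kinases, had 10.47, 10.78 and 10.92 with FMR4 siRNA and 10.42, 10.02 and 10.64 with CTRL siRNA, so its groups overlapped (0.36, SE 0.11, adjusted p = 0.0679). FOSL2, an AP-1 subunit, had 8.0, 8.06 and 8.27 with FMR4 siRNA and 7.80, 7.60 and 7.83 with CTRL siRNA, without overlap (0.37, SE 0.13, adjusted p = 0.106). DUSP5, a phosphatase of nuclear ERK, had 8.10, 8.27 and 8.19 with FMR4 siRNA and 7.64, 7.83 and 7.86 with CTRL siRNA (0.41, SE 0.16, adjusted p = 0.159). ID3 ran the other way, with 8.95, 9.27 and 9.41 with FMR4 siRNA and 9.51, 9.43 and 9.51 with CTRL siRNA (-0.27, SE 0.13, adjusted p = 0.287).

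The test takes its error from all 24 arrays, and those include the FMR4 siRNA arrays of 6 h, which deviated most over all genes. There 38 of the 42 genes had their widest range among the 4 conditions of that time. The share over all genes was not counted, so this is not read as a trait of the set. With those 3 arrays left out of the fit, an alternative added after the values were seen, the same differences gave 7 genes as higher in FMR4 siRNA cells and none as lower, against 5.2% of all genes that were higher. The 7 were DUSP5 (adjusted p = 0.00111), FOSL2 (0.0029), SRF (0.012), ID4 (0.0132), JUND (0.0145), SPRY2 (0.016) and HBEGF (0.0262), the last a ligand of the EGF receptor. A fit to the 6 arrays compared gave 3 genes, all higher, and array weights gave 5 higher and 1 lower. Shares over all genes are not given for these fits, so their counts are not read as a trait of the set. Leaving out FMR4 siRNA replicate 1 of 24 h gave 2, leaving out CTRL siRNA replicate 3 gave 1, and leaving out any of the other 4 gave 0.

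**Figure D4:**
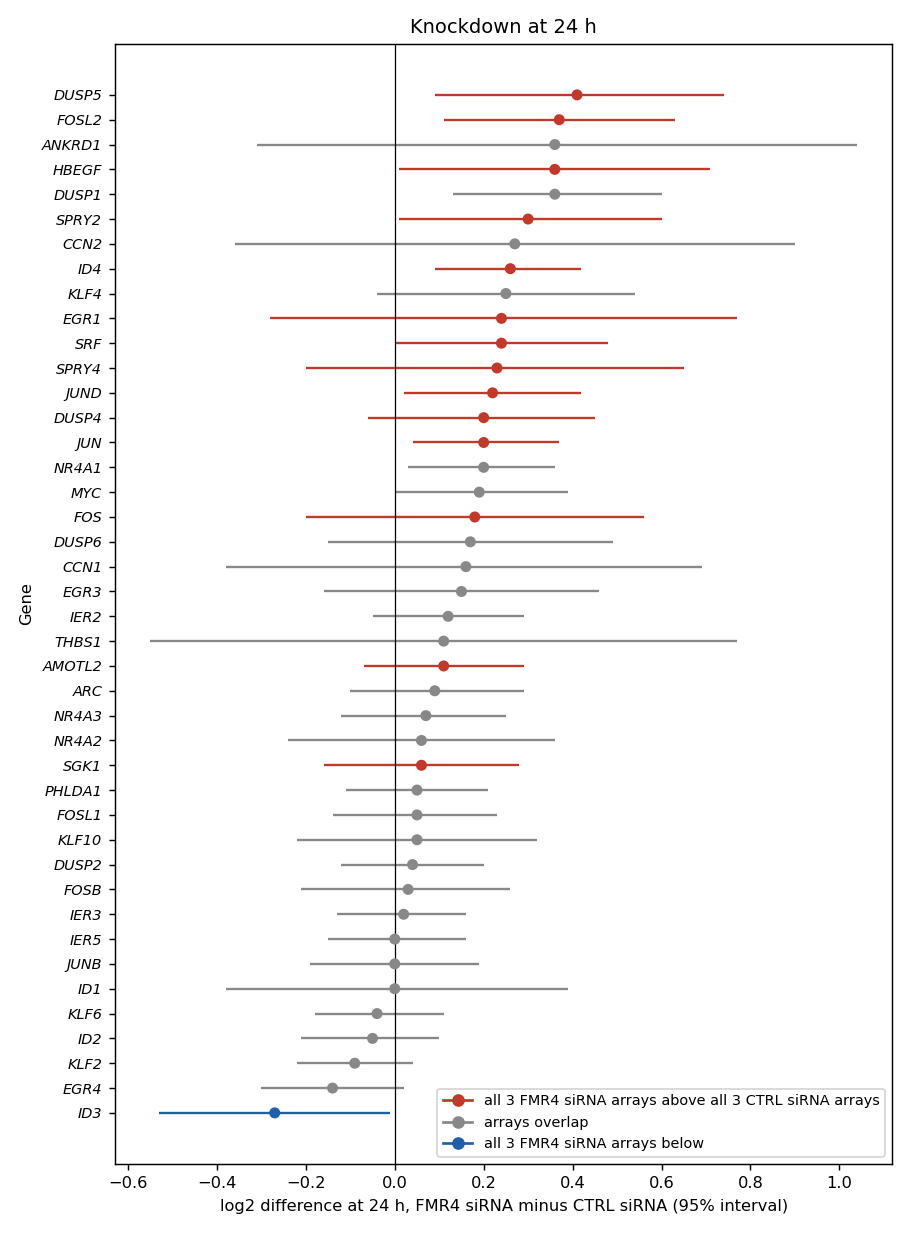
log2 difference of FMR4 siRNA minus CTRL siRNA at 24 h with its 95% interval for each gene, from the fit to 24 arrays, coloured by whether the 3 arrays of each condition overlap. Of the 42 points, 37 lie above 0, the largest at 0.41 for DUSP5, and ID3 at -0.27 is the lowest.

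The difference between the knockdown effects, 24 h minus 6 h, was tested directly. No gene of the set passed, against 1.18% of all genes, and the median was 0.245 over the set and 0.03 over all genes. FOSL2 had the lowest adjusted p, at 0.18, for a difference of 0.55 (SE 0.18). This test also turned on FMR4 siRNA replicate 3 of 6 h, for without it 21 of the 42 passed, all higher, against 6.24% of all genes. CCN2 then differed by 1.43, THBS1 by 1.36, EGR1 by 1.09 and CCN1 by 1.03.

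No gene of the set passed under overexpression. At 6 h none of the 42 passed for FMR4 pcDNA3.1 minus CTRL pcDNA3.1, beside 0.0% of all genes, and none did at an unadjusted p under 0.05, against 2.03% of all genes. At 24 h again none passed, beside 0.0% of all genes, and none had an unadjusted p under 0.05, against 3.27%. The median differences were 0.01 at 6 h and 0.00 at 24 h, and 24 of 42 and 21 of 42 were above 0. The intervals leave room for changes of some size. EGR1 differed by 0.15 at 6 h with a 95% interval of -0.37 to 0.68, and THBS1 by -0.12 with -0.78 to 0.54. JUN was held more tightly, with 0.03 at both times and intervals of -0.13 to 0.20 at 6 h and -0.14 to 0.19 at 24 h.

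EGR4, a relative of EGR1, is the member that the study's own list of FMR4-responsive genes holds. That list was chosen on these arrays, so it is no independent evidence. At 24 h EGR4 had 7.47, 7.54 and 7.5 with FMR4 pcDNA3.1 and 7.46, 7.4 and 7.46 with CTRL pcDNA3.1, and 7.35, 7.31 and 7.38 with FMR4 siRNA and 7.37, 7.66 and 7.43 with CTRL siRNA. The plasmid arrays did not overlap and the siRNA arrays did. The differences were 0.06 for overexpression (SE 0.078, adjusted p = 0.999) and -0.14 for knockdown (SE 0.078, adjusted p = 0.423). At 6 h they were -0.11 for overexpression and -0.01 for knockdown, and the second of these changed sign with quantile normalization (0.01).

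Plasmid and siRNA cells were then set against each other, first FMR4 pcDNA3.1 against FMR4 siRNA. These cells differ in FMR4 overexpression against knockdown as well as in nucleic acid and reagent, which cannot be told apart. At 6 h FMR4 pcDNA3.1 minus FMR4 siRNA gave 1 gene as higher, JUN, against 0.396% of all genes, and 0 as lower, against 0.13%. JUN had 11.28, 11.33 and 11.37 with FMR4 pcDNA3.1 and 11.17, 10.92 and 10.81 with FMR4 siRNA (0.36, SE 0.081, limma adjusted p = 0.0467). Its siRNA replicates ran opposite to those of THBS1, with replicate 1 the highest and replicate 3 the lowest. At an unadjusted p under 0.05 there were 15 of 42, against 20.4% of all genes. THBS1 differed by -1.29 and CCN2 by -1.10 without passing. Without FMR4 siRNA replicate 1 of 6 h, 16 genes were lower, against 4.58% of all genes, with THBS1 at -1.89 and CCN2 at -1.52. The call of JUN was lost, leaving 0 genes, when any of the other 5 arrays was left out, with a replicate block, with quantile normalization and in a fit to only the arrays compared.

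CTRL pcDNA3.1 minus CTRL siRNA at 6 h shares no array with that comparison, though both take their error from the same fit. It gave 9 genes as lower in plasmid cells, against 1.7% of all genes, and 1 as higher, against 1.6%. The levels already given show no overlap for THBS1 (-1.79, SE 0.32, limma adjusted p = 0.0129), CCN2 (-1.62, SE 0.30, 0.017), EGR1 (-1.17, SE 0.25, 0.0246), CCN1 (-1.17, SE 0.26, 0.0251) and AMOTL2 (-0.35, SE 0.087, 0.0364). FOSL1, an AP-1 subunit, had 8.38, 8.56 and 8.34 with CTRL pcDNA3.1 and 8.75, 8.81 and 8.96 with CTRL siRNA (-0.41, SE 0.09, 0.0251). IER5 had 8.72, 8.81 and 8.63 with CTRL pcDNA3.1 and 8.92, 9.12 and 9.0 with CTRL siRNA (-0.30, SE 0.073, 0.0338). SRF at -0.46 and FOSL2 at -0.47 complete the 9. The exception was JUN, the main partner of FOS in AP-1, with 11.21, 11.28 and 11.38 with CTRL pcDNA3.1 and 10.86, 11.002 and 10.83 with CTRL siRNA (0.39, SE 0.081, 0.0183). Arrays without overlap were more common still, for 26 of 42 genes had all plasmid arrays below all siRNA arrays, against 16.3% of all genes. The median difference was -0.29 over the set and -0.02 over all genes.

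That count depended on the arrays in the fit. With the FMR4 siRNA 6 h arrays left out, 22 genes were lower, against 6.87% of all genes, and JUN was the 1 higher. Against 10 genes called in either direction, there were 0 without CTRL siRNA replicate 3, without CTRL pcDNA3.1 replicate 1 or without CTRL pcDNA3.1 replicate 3, and there were 3 without CTRL siRNA replicate 1 and 6 without CTRL siRNA replicate 2. The number of called genes on the whole array fell too, to 10, 22, 9, 66 and 494 in those 5 fits, against 608.

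FMR4 pcDNA3.1 minus FMR4 siRNA at 24 h gave 10 genes as lower, against 5.16% of all genes, and 1 as higher, against 3.22%. DUSP1 had 10.02, 10.17 and 9.99 with FMR4 pcDNA3.1 and 10.47, 10.78 and 10.92 with FMR4 siRNA (-0.66, SE 0.11, limma adjusted p = 0.000744). SGK1, a serum- and glucocorticoid-induced kinase, had 7.09, 7.06 and 7.12 with FMR4 pcDNA3.1 and 7.66, 7.63 and 7.61 with FMR4 siRNA (-0.54, 0.00246). NR4A2, an orphan nuclear receptor, had 7.83, 7.87 and 7.64 with FMR4 pcDNA3.1 and 8.19, 8.57 and 8.67 with FMR4 siRNA (-0.70, 0.00375). The groups lay apart in all 3. KLF4, a zinc-finger factor of the Krüppel family, had 7.48, 7.36 and 7.12 with FMR4 pcDNA3.1 and 7.82, 8.09 and 8.05 with FMR4 siRNA (-0.67, 0.00386). JUN had 10.51, 10.48 and 10.45 with FMR4 pcDNA3.1 and 10.80, 10.92 and 10.83 with FMR4 siRNA (-0.37, 0.00537), the reverse of its order at 6 h. ANKRD1 had the largest difference, with 6.68, 6.98 and 6.61 with FMR4 pcDNA3.1 and 7.65, 8.24 and 8.38 with FMR4 siRNA (-1.34, SE 0.33, 0.0114). Its FMR4 siRNA arrays of 24 h lay within their own range at 6 h, 6.93 to 8.78. FOSB had 7.51, 7.62 and 7.56 with FMR4 pcDNA3.1 and 7.81, 7.95 and 8.22 with FMR4 siRNA (-0.43, 0.02), and FOSL2, MYC and ARC were lower by smaller margins. ID3 was the 1 higher gene, with 9.76, 9.68 and 9.63 with FMR4 pcDNA3.1 and 8.95, 9.27 and 9.41 with FMR4 siRNA (0.48, SE 0.13, 0.0176). Leaving out FMR4 siRNA replicate 3, FMR4 pcDNA3.1 replicate 1 or FMR4 pcDNA3.1 replicate 3 gave 6 genes, and FMR4 siRNA replicate 2 gave 7.

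CTRL pcDNA3.1 minus CTRL siRNA at 24 h gave 3 genes as lower, against 1.59% of all genes, and none as higher. SGK1 had 7.14, 7.02 and 6.97 with CTRL pcDNA3.1 and 7.56, 7.59 and 7.56 with CTRL siRNA (-0.53, SE 0.11, limma adjusted p = 0.00489). NR4A2 had 7.89, 7.60 and 7.73 with CTRL pcDNA3.1 and 8.48, 8.05 and 8.71 with CTRL siRNA (-0.68, SE 0.15, 0.00764). DUSP1 had 10.004, 9.82 and 9.97 with CTRL pcDNA3.1 and 10.42, 10.02 and 10.64 with CTRL siRNA (-0.43, SE 0.11, 0.0329). All 3 were also called between the FMR4 conditions, on other arrays, an overlap not counted over all genes. Both comparisons take their error from the same fit to all 24 arrays. None of the 3 genes is among the 10 called between the controls at 6 h. Their groups did not overlap, and single arrays moved the count between 1 and 4, with 1 left without CTRL siRNA replicate 3 or without CTRL pcDNA3.1 replicate 2. THBS1, which had the largest difference at 6 h, had 5.86, 6.03 and 5.82 with CTRL pcDNA3.1 and 5.94, 5.71 and 5.75 with CTRL siRNA at 24 h.

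The set was next compared between the times within each condition. In FMR4 siRNA cells 9 of the 42 were lower at 24 h than at 6 h, against 4.37% of all genes. SRF had 10.94, 11.04 and 10.996 at 24 h and 11.18, 11.30 and 11.94 at 6 h (-0.48, SE 0.12, limma adjusted p = 0.00646). ID2, the brightest gene of the set, had 11.56, 11.63 and 11.59 at 24 h and 11.72, 11.94 and 12.03 at 6 h (-0.30, 0.00921), and ID1 had 8.22, 8.47 and 8.40 at 24 h against 8.67, 8.82 and 9.84 at 6 h (-0.74, 0.00864). CCN2 did not overlap either, with 8.44, 8.56 and 8.62 at 24 h (-1.22, 0.00837). THBS1 had 6.01, 5.82 and 5.91 at 24 h (-1.28, 0.00829) and CCN1 7.88, 8.37 and 8.20 (-0.99, 0.0103), and both overlapped with replicate 1 of 6 h. FOSL1 (-0.28) and DUSP5 (-0.46) overlapped too. FOSL1 had 8.39, 8.46 and 8.51 at 24 h and 8.48, 8.85 and 8.88 at 6 h, and KLF10, a factor induced by TGF-beta, had 9.53, 9.68 and 9.57 at 24 h and 9.67, 9.86 and 10.54 at 6 h (-0.43, 0.0288). A fit to the 6 arrays alone called 0 of the 42. Without replicate 1 of 6 h 16 were lower, against 6.98% of all genes.

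CTRL siRNA cells had lower levels at 24 h for most of the set. Of 42 genes, 25 were lower, against 8.75% of all genes, and none was higher. All 9 genes of FMR4 siRNA cells are among the 25, an overlap not counted over all genes. In 32 genes all arrays of 24 h lay below all arrays of 6 h, against 18.5%. The median change was -0.34 over the set and -0.01 over all genes. CCN2 fell to 8.46, 8.0 and 8.35 at 24 h, against 10.07, 10.17 and 10.61 at 6 h (-2.01, SE 0.30, limma adjusted p = 0.000144). THBS1 fell to 5.94, 5.71 and 5.75 at 24 h, which is below the background mark, against 7.75, 7.58 and 8.09 at 6 h (-2.01, SE 0.32, 0.000219), so background limits the fall that could be read. CCN1 fell to 7.97, 7.68 and 8.33 at 24 h, against 9.36, 9.42 and 9.79 at 6 h (-1.53, SE 0.26, 0.000371). These 3 secreted proteins had the largest changes of the set, and none of their arrays overlapped. SRF, the factor that many genes of the set answer to, had 10.70, 10.79 and 10.76 at 24 h and 11.45, 11.56 and 11.70 at 6 h (-0.82, SE 0.12, 7.58e-05). ID4 had 9.45, 9.34 and 9.47 at 24 h and 9.89, 9.82 and 9.96 at 6 h (-0.47, 0.000377). ID1 had 8.51, 8.34 and 8.25 at 24 h and 9.27, 9.30 and 9.56 at 6 h (-1.02, 0.000775). Arrays of the times lay apart in all of these genes. DUSP5 had 7.64, 7.83 and 7.86 at 24 h and 8.61, 8.65 and 8.67 at 6 h (-0.87, 0.000628), and SPRY4, another brake on ERK, changed by -1.0. FOSL2 had 7.80, 7.60 and 7.83 at 24 h and 8.51, 8.33 and 8.50 at 6 h (-0.70, 0.000643).

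By role, the lower genes in CTRL siRNA cells were 4 of 5 YAP and TEAD targets, 6 of 7 phosphatases and Sprouty inhibitors, 3 of 3 IER genes, 4 of 7 AP-1 subunits, 2 of 3 EGR factors, 3 of 4 ID genes, 1 of 5 among MYC and the KLF factors and 0 of 3 NR4A receptors. ANKRD1 was the YAP target that did not pass (-0.19), with 7.77, 7.16 and 8.26 at 24 h. ARC, PHLDA1, HBEGF and SGK1, which encode a ligand and cytoplasmic proteins, had 1 of 4 lower, HBEGF. The count stayed between 18 and 23 when any 1 of the arrays was left out.

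In FMR4 pcDNA3.1 cells 7 of 42 were lower at 24 h, against 3.03% of all genes, and in CTRL pcDNA3.1 cells 7 were lower, against 1.93%. Of each 7, 6 were shared, an overlap not counted over all genes. These counts rested on the fit. With the FMR4 siRNA 6 h arrays left out they were 17, against 5.82% of all genes, in FMR4 pcDNA3.1 and 18, against 4.19%, in CTRL pcDNA3.1 cells, and array weights gave 17 in each. A fit to only the arrays compared gave 18 in FMR4 pcDNA3.1, 1 of them higher, and 16 in CTRL pcDNA3.1 cells. Shares over all genes are not given for array weights or for this fit, so these counts are not read as a trait of the set. Of the 8 genes called in either plasmid condition, DUSP1, FOSB, KLF4, MYC and SGK1 were called in neither siRNA condition. The difference between plasmid and siRNA cells itself, tested over both conditions of each, passed for DUSP1 and MYC and not for FOSB (limma adjusted p = 0.0945), KLF4 (0.0718) and SGK1 (0.14). JUN, with the largest change among the called genes, fell to 10.51, 10.48 and 10.45 at 24 h against 11.28, 11.33 and 11.37 at 6 h with FMR4 pcDNA3.1 (-0.85, SE 0.081, limma adjusted p = 1.63e-06), and to 10.49, 10.43 and 10.44 against 11.21, 11.28 and 11.38 with CTRL pcDNA3.1 (-0.84, SE 0.081, 2.3e-06). Its 6 arrays of 24 h lay between 10.43 and 10.51. DUSP1 had 10.02, 10.17 and 9.99 at 24 h and 10.68, 10.65 and 10.71 at 6 h with FMR4 pcDNA3.1 (-0.62, 0.00218), and 10.004, 9.82 and 9.97 at 24 h and 10.52, 10.62 and 10.59 at 6 h with CTRL pcDNA3.1 (-0.65, 0.00148). MYC, a proto-oncogene factor, had 11.19, 11.24 and 11.03 at 24 h and 11.56, 11.49 and 11.55 at 6 h with FMR4 pcDNA3.1 (-0.38, 0.0165), and changed by -0.35 with CTRL pcDNA3.1. SRF had 10.63, 10.66 and 10.66 at 24 h and 11.16, 11.12 and 11.10 at 6 h with FMR4 pcDNA3.1 (-0.48, 0.0149), and 10.76, 10.61 and 10.58 at 24 h and 11.07, 11.13 and 11.12 at 6 h with CTRL pcDNA3.1 (-0.45, 0.0222). SRF was the 1 gene of the 42 that passed in all 4 conditions, and in all 4 its arrays did not overlap. By mean level alone 27 of the 42 were lower at 24 h in all 4, a number not counted over all genes. Among them CCN1 changed by more than SRF in each (-0.82 in both plasmid conditions, with a limma adjusted p of 0.0616 for FMR4 and 0.0599 for CTRL).

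SGK1, ID4, FOSB and KLF4 were the other genes called in plasmid cells. SGK1 had 7.09, 7.06 and 7.12 at 24 h and 7.49, 7.54 and 7.57 at 6 h with FMR4 pcDNA3.1 (-0.44, limma adjusted p = 0.0149), and changed by -0.48 with CTRL pcDNA3.1. ID4 had 9.49, 9.48 and 9.30 at 24 h and 9.83, 9.72 and 9.79 at 6 h with FMR4 pcDNA3.1 (-0.36, 0.00782), and changed by -0.40 with CTRL pcDNA3.1. Neither gene's arrays overlapped between the times. FOSB was called with FMR4 pcDNA3.1, at 7.51, 7.62 and 7.56 at 24 h and 8.03, 7.88 and 7.98 at 6 h (-0.40, 0.0377). KLF4 was called with CTRL pcDNA3.1, at 7.25, 7.39 and 7.2 at 24 h and 7.79, 7.82 and 7.69 at 6 h (-0.49, 0.041). Whether these changes differ between the plasmids was not tested. Single arrays moved the counts, to 2 at the lowest without FMR4 pcDNA3.1 replicate 3 of 24 h and to 3 without CTRL pcDNA3.1 replicate 1 of 6 h. They were 4 without FMR4 pcDNA3.1 replicate 1 or 3 of 6 h and without CTRL pcDNA3.1 replicate 2 of 6 h or replicate 2 or 3 of 24 h.

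The change between the times, averaged over both plasmid conditions and set against that over both siRNA conditions, was tested as a difference. Of the 42, 4 had a higher change in plasmid cells, against 4.42% of all genes, and 4 a lower one, against 6.62%. In either direction they are 8 of 42, against 2033 of all 18417 genes. THBS1 changed by -0.07 in plasmid cells and -1.64 in siRNA cells (difference 1.57, SE 0.32, limma adjusted p = 0.00466). Its plasmid means lay at the background mark at both times, 5.88 to 6.02, so no fall could be read there and the size of this difference is limited by the floor. CCN2 changed by -0.55 in plasmid and -1.61 in siRNA cells (1.07, SE 0.30, 0.0293), KLF10 by -0.11 in plasmid and -0.52 in siRNA cells (0.41, 0.0475), and FOSL1 by -0.05 in plasmid and -0.36 in siRNA cells (0.30, 0.0332). In the other direction, JUN changed by -0.84 in plasmid cells and -0.19 in siRNA cells (-0.66, SE 0.081, 9.85e-05), DUSP1 by -0.63 in plasmid and 0.09 in siRNA cells (-0.73, SE 0.11, 0.00083), NR4A2 by -0.34 in plasmid and 0.14 in siRNA cells (-0.47, 0.0401), and MYC by -0.36 in plasmid and -0.07 in siRNA cells (-0.30, 0.0459). Counting both directions, single arrays moved the number between 3 and 15. It was 15 without FMR4 siRNA replicate 1 of 6 h, and 3 without replicate 3 of CTRL siRNA or of CTRL pcDNA3.1 of 6 h. It was 4 or 5 without any of these arrays: at 6 h all 3 of FMR4 pcDNA3.1, replicate 1 of CTRL pcDNA3.1 and replicate 1 of CTRL siRNA, and at 24 h replicates 2 and 3 of both plasmids, replicate 2 of FMR4 siRNA and replicates 1 and 3 of CTRL siRNA.

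**Figure D5:**
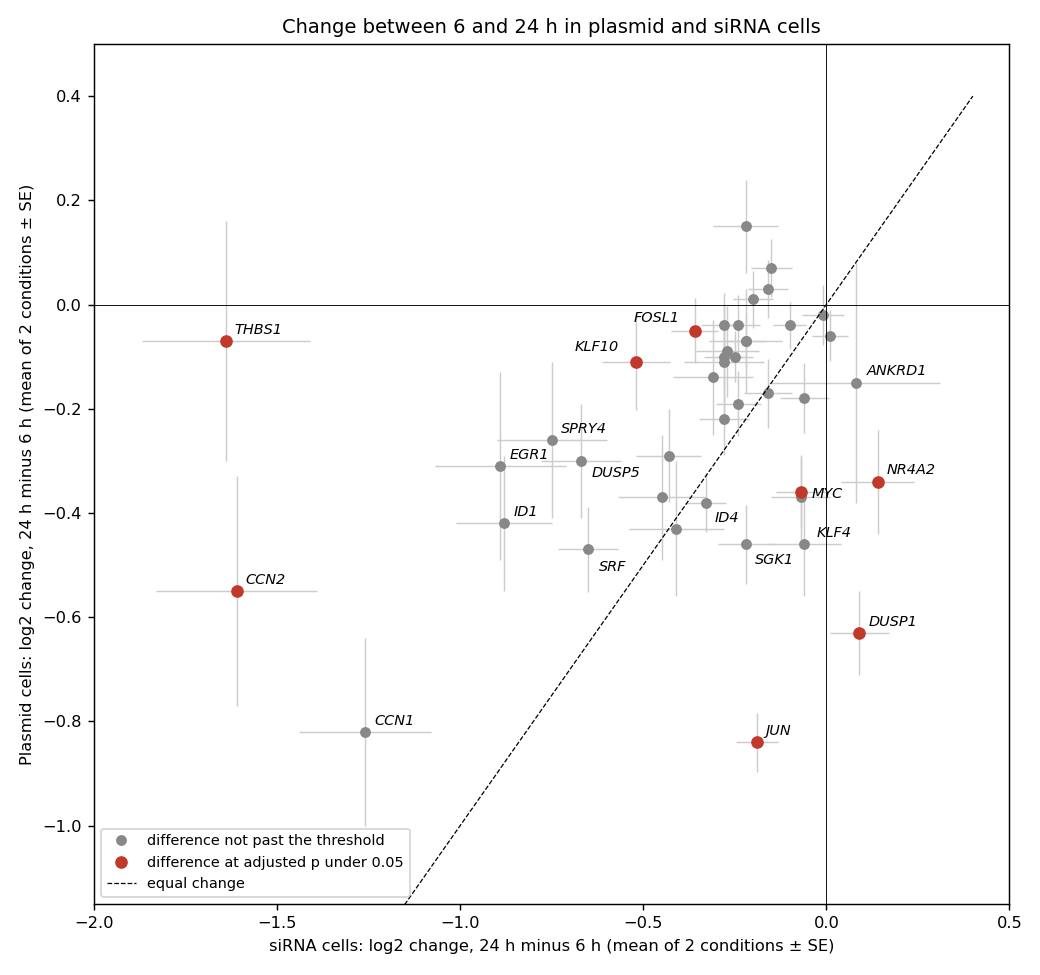
Change between the times (log2, 24 h minus 6 h) in plasmid cells (vertical axis) and siRNA cells (horizontal axis), each the mean of 2 conditions with its SE; red points passed the test of the difference and the dashed line marks equal change. THBS1 and CCN2 lie far to the left, at -1.64 and -1.61 in siRNA cells, and JUN and DUSP1 low, at -0.84 and -0.63 in plasmid cells.

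Other genes of the same pathways were counted through lists that had no member in common with the set. SRF cofactors and cytoskeletal targets had 8 of 20 genes lower at 24 h in FMR4 pcDNA3.1, 8 in CTRL pcDNA3.1, 10 in FMR4 siRNA and 13 in CTRL siRNA cells, with list medians of -0.16, -0.14, -0.26 and -0.33. The shares of all genes that were lower are those given above, 3.03%, 1.93%, 4.37% and 8.75% in that order. The shares of all genes that were higher at 24 h were 3.3%, 3.83%, 12.3% and 9.8% in the same order. VCL, the focal adhesion protein vinculin, averaged 10.10 at 24 h and 11.19 at 6 h in FMR4 pcDNA3.1 cells (-1.09, SE 0.095, limma adjusted p = 5.17e-07), and changed by -1.02 in CTRL pcDNA3.1, -0.97 in FMR4 siRNA and -1.27 in CTRL siRNA cells. CNN2, a calponin that binds actin, changed by -0.92, -1.0, -0.70 and -1.06 in the same order of conditions. Both genes passed in all 4. Of 18 genes for ERK feedback and output, 6, 3, 7 and 11 were lower in that order, led by ETV5, an ETS factor, with -1.54, -1.44, -1.77 and -2.46. Further immediate-early genes had 4 of 28 lower in each plasmid condition, 2 in FMR4 siRNA and 8 in CTRL siRNA cells. In FMR4 siRNA cells 5 of the 28 were higher at 24 h, against 12.3% of all genes, among them ATF3, a stress-induced factor (1.08, 0.000166), and RHOB, a small GTPase (0.35, 0.00125). Of 20 further YAP targets, 1, 1, 1 and 6 were lower in the same order, and 1 was higher in each siRNA condition. Of 18 genes for Hippo kinases, YAP, TAZ and TEAD, 1, 1, 2 and 4 were lower, and 3 were higher in FMR4 siRNA cells. BMP and TGF-beta immediate targets had 0 of 11 lower in any condition, with 1, 1, 2 and 0 higher, led by SKIL, a SMAD repressor. Heat-shock and stress genes had 2, 1, 3 and 5 of 13 lower and 3, 3, 5 and 5 higher.

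The lists were also read in the other comparisons. At 6 h CTRL pcDNA3.1 cells were lower than CTRL siRNA cells, beside 1.7% of all genes, for 4 of 20 SRF-linked genes, such as ELK4, an SRF partner (-0.51, limma adjusted p = 0.0183), and for 3 of 28 further immediate-early genes, led by ZFP36, which destabilises mRNA (-0.69, 0.017). Among further YAP targets 2 of 20 were lower, FSTL1 (-0.54) and FOXF2 (-0.33), and no gene of 18 for Hippo kinases, YAP, TAZ and TEAD passed. At 24 h FMR4 pcDNA3.1 cells were lower than FMR4 siRNA cells for 9 of 28 further immediate-early genes, against 5.16% of all genes, with ATF3 at -1.16, PTGS2 at -1.10 and RHOB at -0.48. In the knockdown at 24 h, 3.43% of all genes were higher and 2.45% lower in FMR4 siRNA cells. Of 18 ERK genes 2 were higher, SPRED2, an ERK inhibitor (0.44, SE 0.068, 0.000172), and DUSP8 (0.37, 0.0324). Higher too were 1 of 28 further immediate-early genes, RHOB (0.28, 0.013), 1 of 20 SRF-linked genes, CNN2 (0.34, 0.028), and 1 of 11 BMP and TGF-beta targets, SKIL (0.37, 0.0177), and none of these lists had a lower gene. Of 20 further YAP targets PTPN14 was higher (0.25, 0.0288) and CRIM1 lower (-0.44, 0.00383). Of the 18 Hippo genes, TEAD1 (0.40, 0.000367) and VGLL4 (0.38, 0.000328) were higher and MOB1A (-0.64, 0.000106) was 1 of 2 lower. No heat-shock or stress gene of 13 passed. In the knockdown at 6 h and in overexpression at either time, 0 genes of any of the 7 lists passed.

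Of the 42 genes, 8 passed in none of the 14 comparisons, a number not counted over all genes. They were FOS, JUNB, EGR4, KLF2, KLF6, NR4A1, NR4A3 and PHLDA1. KLF6 was the flattest of the set, with all 24 arrays between 8.72 and 9.02.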

How the data were processed

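Each array was hybridised on a GeneChip Human Gene ST platform, which the labels give as version 1.0 and the study's methods as 2.0. The authors deposited log2 values made by GC-RMA background correction and normalization (version not given in the sources used here), and run between 2.62 and 14.50, with array medians of 7.43 to 7.53. They were used as deposited. Of 33297 probe sets, 21214 name a gene, 19460 name 1 symbol and 1754 several, giving 18417 genes, each taken at its brightest probe set.

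A linear model with a mean for each of 8 conditions was fitted to all 24 arrays with limma 3.58.1 in R 4.3.3 (16 residual degrees of freedom, about 22 after moderation). P-values were adjusted by Benjamini-Hochberg over the 21214 named probe sets within each of 14 comparisons, at a threshold of 0.05. Array data give no read depth, so precision rests on 3 arrays per condition, and p-values measure the spread between these replicate pools. Values on every array are given for genes past the threshold, the 8 of lowest adjusted p in each plasmid or time comparison, the 8 widest ranges at 6 h, and EGR4. At most 3 genes per other list are named.

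The genes, lists and tests were chosen with earlier results of these data known. The alternatives tried were quantile normalization, median centring, leaving out dim probe sets, averaging probe sets, array weights, trended robust moderation, a fit to only the arrays compared, a replicate block and leaving out single arrays. The script was tested on simulated data. Replicate numbers were not used to pair the samples, since 0 of 12 comparisons had every same-number correlation of deviations over 0.1. That rule cannot exclude shared handling of a single replicate number. For replicate 3 in the knockdown at 6 h the correlation was 0.47, against 0.17 and -0.06 for replicates 1 and 2. Figures and sequence searches used Python 3.11.15.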

Additional observations from a re-analysis of the deposited data

Results flagged for a closer look

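For 8 genes the change between 24 h and 6 h in plasmid cells differed from that in siRNA cells by limma's test of the difference itself (adjusted p under 0.05), which is what marks them here, against 2033 of all 18417 genes (4.42% with a higher change in plasmid cells and 6.62% with a lower one). Leaving out single arrays moved the 8 to between 3 and 15. The difference, plasmid minus siRNA, was 1.57 for THBS1, 1.07 for CCN2, 0.41 for KLF10 and 0.30 for FOSL1. The value for THBS1 is limited by the floor, since its plasmid arrays lay at background at both times. The difference was -0.73 for DUSP1, -0.66 for JUN, -0.47 for NR4A2 and -0.30 for MYC. JUN and DUSP1 kept the lowest adjusted p of the 8, at 9.85e-05 and 0.00083. Nucleic acid and transfection reagent differ together between these cells and cannot be told apart, and the FMR4 conditions among them also differ in overexpression against knockdown.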

How the results depend on the processing

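Alternatives other than leaving out an array kept 90 of 121 counts of called genes within 1.5 times the count given in the report, and leaving out an array kept 64 of 108. Of the values of single genes, 917 of 973 kept direction and side of the threshold under the other alternatives and 564 of 816 when an array was left out. Of those 816, 225 no longer passed the threshold, 16 newly passed it and 11 changed direction. With array weights the counts were 1 for the knockdown at 6 h, 6 at 24 h and 9 for its change between the times. They were 5 for FMR4 plasmid over FMR4 siRNA at 6 h and 18 at 24 h, and 24 for the controls at 6 h and 10 at 24 h. For 24 h over 6 h they were 17 in each plasmid condition, and 19 for the difference between plasmid and siRNA cells. A fit to only the arrays compared gave 3 for the knockdown at 24 h, 0 and 18 for FMR4 plasmid over FMR4 siRNA at 6 h and 24 h, 19 and 6 for the controls, and 18, 16 and 0 for the change between the times in FMR4 pcDNA3.1, CTRL pcDNA3.1 and FMR4 siRNA cells. Leaving the FMR4 siRNA 6 h arrays out of the fit, an alternative chosen after seeing the data, gave 7 for the knockdown at 24 h, 22 for FMR4 plasmid over FMR4 siRNA at 24 h, 23 and 8 for the controls at 6 h and 24 h, and 17 and 18 for the change between the times in FMR4 pcDNA3.1 and CTRL pcDNA3.1 cells. Counts over all genes moved too. For the controls at 6 h they were 3267 with array weights and 1386 in a fit to only the arrays compared. They were 2630 without the FMR4 siRNA 6 h arrays, against 608 in the report. Shares over all genes are not given beside the other counts here. The controls at 24 h gave 6 with quantile normalization and 5 with median centring or without dim probe sets. The knockdown at 24 h gave 1 without dim probe sets and 1 with trended robust moderation. FMR4 plasmid over FMR4 siRNA at 6 h gave 0 with quantile normalization. The replicate block also gave 0 there, against 1 without it, and moved no other count by over 1.5 times.

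Leaving out single arrays gave 0 to 17 genes for the knockdown at 6 h, 0 to 2 at 24 h and 0 to 21 for its change between the times, and 0 to 0 for overexpression at either time. It gave 0 to 17 and 6 to 10 for FMR4 plasmid over FMR4 siRNA at 6 h and 24 h, and 0 to 9 and 1 to 4 for the controls. For the change between the times it gave 2 to 6 in FMR4 pcDNA3.1, 3 to 6 in CTRL pcDNA3.1, 6 to 16 in FMR4 siRNA and 18 to 23 in CTRL siRNA cells, and 3 to 15 for plasmid minus siRNA cells. Directions turned for single genes in the knockdown at 6 h, where leaving out arrays gave -0.71 to 0.21 for ANKRD1, -0.85 to 0.06 for EGR1, -0.87 to 0.02 for CCN1, -0.66 to 0.02 for SPRY4, -0.36 to 0.24 for FOS, with 16 of the 42 genes turning positive without FMR4 siRNA replicate 1, and -0.06 to 0.06 for EGR4. FOS was also 0.01 there with quantile normalization, and EGR4 0.01 with quantile normalization or median centring and 0.04 with array weights. For FMR4 plasmid over FMR4 siRNA at 6 h, leaving out arrays gave -0.57 to 0.04 for FOS and -0.34 to 0.24 for ID1, which was 0.11 with array weights. The cause was not tested. A level near 6.00, as for THBS1 in plasmid cells, is limited by background.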
